A study of Mus musculus with 8 samples.

Results

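Lgr5 and 9 further genes of the canonical Wnt pathway were followed across 8 bulk RNA-seq libraries of mouse organoids, which are 3-dimensional cultures grown here from liver tumours. The 10 genes were Lgr5, Lgr4, Axin2, Ascl2, Notum, Rnf43, Znrf3, Nkd1, Tcf7 and Sp5, taken by gene symbol from the 45777 genes listed for every library. The labels call the cultures organoids of hepatocellular carcinoma related to MASH (metabolic dysfunction-associated steatohepatitis) and give the genotype of all of them as WT. The parental group held 1 library labelled control from each of 4 lines, SNU-6621-TO, SNU-6622-TO, SNU-6624-TO and SNU-6625-TO. The lenvatinib group held SNU-6624-TO and SNU-6625-TO under the kinase inhibitor lenvatinib, 1 library each. The resistant group held SNU-6624-TO-LEN and SNU-6625-TO-LEN, labelled as lenvatinib-resistant with the treatment given as control, so resistance and the absence of the drug at harvest cannot be told apart when they are set against the lenvatinib group. The labels used here state no dose, no duration, and neither age nor number of source mice. A line is a single culture lineage, and nothing in the labels says that its libraries came from separate cultures, so a p-value here reflects only how these libraries spread, and that spread may be technical.

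Wnt ligands bind Frizzled receptors and the co-receptors Lrp5 and Lrp6, which stops the Axin and Apc complex from degrading beta-catenin, and beta-catenin then enters the nucleus and switches on genes through Tcf and Lef factors. R-spondins strengthen the signal by binding Lgr4 or Lgr5, which removes the ubiquitin ligases Rnf43 and Znrf3 that otherwise clear Frizzled from the surface. Many targets, among them Axin2, Rnf43, Znrf3, Nkd1 and Notum, feed back to limit the pathway, and in the liver the pathway is known for hepatocyte zonation and for the Lgr5-positive cells that appear after injury.

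Libraries held 49.0 to 61.0 M counts (megacounts), and a floor of 3 counts was 0.0492 to 0.0612 CPM (counts scaled to the library total in megacounts). Intervals and floors given here cover counting error only, as no molecular identifiers were used in counting. Of the hepatocyte markers, Alb and Cps1 had 0 counts in all 8 libraries, while Hnf4a, a transcription factor gene also read in gut epithelium, made up nearly all of the 91.1 to 151 CPM to which the list of 6 summed in the parental lines, with Afp, Apoa1 and Ttr at most at 1.45 CPM. By contrast, 6 biliary and progenitor markers summed to 6761 to 7942 CPM there, mostly from Krt19, Krt7 and Prom1. In the same lines 5 intestinal epithelium markers summed to 1267 to 2925 CPM, with Cdx1 at 0 counts. Of the markers of other cells, 4 of 7 for stellate cells and fibroblasts stayed at 3 counts or fewer in every library. So did 4 of 6 for endothelium and 5 of 7 for leukocytes. Ptprc, Pdgfrb and Kdr had 0 counts throughout. The stellate cell marker Lrat was read, with 1238, 376, 164 and 59 counts in the parental lines in order of line number. Its list summed to 23.7 CPM in SNU-6621 and 2.31 to 6.92 CPM in the other parental lines. The endothelial marker Pecam1 reached 23 counts (lenvatinib SNU-6624) and the leukocyte marker Csf1r 73 (resistant SNU-6625). Among the parental lines, SNU-6621 stood apart for several of the 10 genes, so parental CPM means are given with and without it.

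Of the 10 genes, 7 had at least 40 counts in every library and 3 were at or near 0 throughout. For orientation, the stretch of 250 bases before the annotated start is shown for Axin2, which changed with lenvatinib, for the R-spondin receptor gene Lgr4, which is read in every library, and for Sp5, which is nearly silent. RefSeq (GRCm38.p6, the assembly behind mm10) is their source and all lie on the plus strand. Capitals mark matches to a Tcf and Lef core, searched on both strands and spelled CTTTGAA, or with the last letters changed, CTTTGAT, further CTTTGTA, and lastly CTTTGTT.
Axin2 (chr11:108920099-108920348): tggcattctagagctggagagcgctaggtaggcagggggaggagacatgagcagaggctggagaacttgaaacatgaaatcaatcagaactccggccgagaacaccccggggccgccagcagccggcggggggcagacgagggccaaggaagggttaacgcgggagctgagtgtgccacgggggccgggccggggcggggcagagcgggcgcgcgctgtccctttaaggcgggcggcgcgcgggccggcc
Lgr4 (chr2:109917397-109917646): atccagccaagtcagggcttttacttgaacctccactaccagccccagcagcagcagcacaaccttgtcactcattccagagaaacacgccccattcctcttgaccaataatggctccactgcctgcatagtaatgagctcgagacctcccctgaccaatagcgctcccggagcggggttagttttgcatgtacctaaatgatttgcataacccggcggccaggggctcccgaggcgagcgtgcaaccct
Sp5 (chr2:70474673-70474922): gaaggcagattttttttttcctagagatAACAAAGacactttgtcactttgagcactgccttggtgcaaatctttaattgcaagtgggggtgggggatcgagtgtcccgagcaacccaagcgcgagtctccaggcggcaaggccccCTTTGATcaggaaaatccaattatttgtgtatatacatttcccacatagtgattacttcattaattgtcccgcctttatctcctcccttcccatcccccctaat
The Axin2 stretch lies inside the longest annotated gene model, before a downstream start, and overlaps no exon. Of 9 annotated starts of 7 of the genes in that table, the Sp5 start was the single one with matches: CTTTGAT 104 bases before the start and CTTTGTT on the opposite strand 222 bases before it. Of 32841 such stretches genome-wide, 14.8% held at least 1 of the 4 words. A match is a description of letters and no statement on binding.

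The first question was how strongly the untreated organoids express these genes. Scaled by transcript length, Rnf43 and Lgr4 had the highest means of the 10, while Lgr5, Axin2 and Notum differed most between lines. RPKM values (CPM divided by the length in kilobases of the longest transcript matched to RefSeq) were 20.4 ± 8.5 for Rnf43, 15.0 ± 5.07 for Lgr4, 13.1 ± 18 for Notum, 7.39 ± 6.11 for Axin2, 5.38 ± 6.88 for Lgr5, 4.65 ± 1.78 for Tcf7 and 2.38 ± 0.821 for Znrf3 (mean ± SD, n = 4 lines). In that order each gene differed from its neighbour by less than the larger of the 2 SDs, apart from Tcf7 and Znrf3, whose means differed by more. With 1 library per line, no difference between lines was tested.

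**Figure D1:**
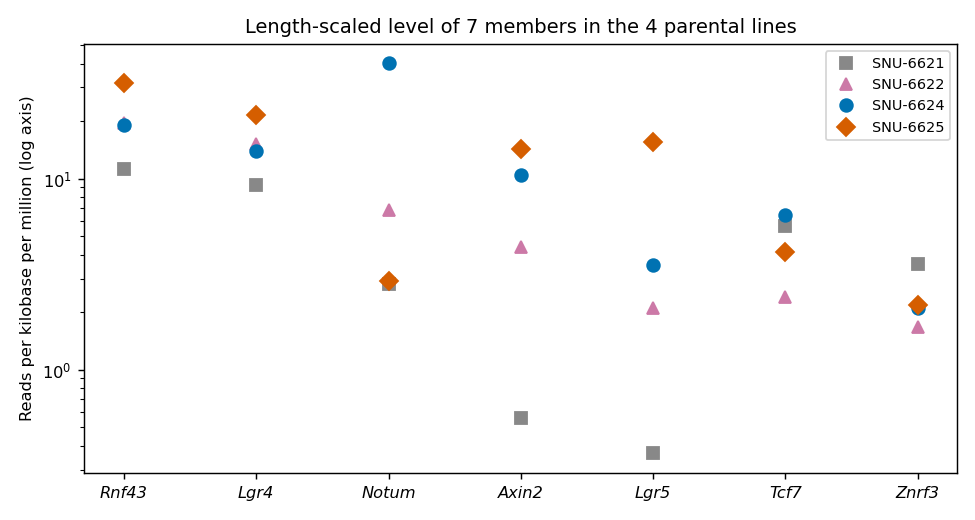
RPKM on a log axis for the 7 members above the floor, ordered by mean, with 1 point per parental line. Lgr5 and Axin2 spread widest downward because of SNU-6621, at 0.365 and 0.557, and Notum upward because of SNU-6624, at 40.0.

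Lgr5 (gene 14160, chromosome 10, 115450314 to 115587780, mm10) encodes an R-spondin receptor that marks stem cells of the gut and regenerating liver. Parental counts, in the order of the line numbers, were 90, 579, 1010 and 3583, which is 1.72, 9.89, 16.7 and 73.1 CPM. The exact 95% binomial interval was 1.38 to 2.12 CPM in SNU-6621 and 70.7 to 75.5 CPM in SNU-6625, so the 42.5-fold gap between these libraries was far beyond counting error. The mean was 25.4 ± 32.4 CPM (SD, n = 4) and 33.2 ± 34.7 CPM without SNU-6621 (n = 3), where the highest and lowest lines differed 7.39-fold. Over 15852 tested genes with more than 3 counts in each parental line, the median gap was 1.58-fold, and 98.8% of them had a smaller gap than Lgr5.

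Its relative Lgr4 (gene 107515, chromosome 2, 109917647 to 110014257), the R-spondin receptor with the broader tissue range, was more even. In the same order it had 2447, 4517, 4278 and 5344 counts, or 46.8, 77.2, 70.8 and 109 CPM. SNU-6621 was again lowest and SNU-6625 highest, with a 2.33-fold gap. The mean was 76.0 ± 25.6 CPM (SD, n = 4) and 85.7 ± 20.5 CPM without SNU-6621 (n = 3).

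The ligase genes had unlike orders. Rnf43 (gene 207742, chromosome 11, 87663087 to 87735539) had 2525, 4909, 4991 and 6715 counts, or 48.3, 83.9, 82.6 and 137 CPM, the same extremes as Lgr4, with a mean of 87.9 ± 36.6 CPM (SD, n = 4) and 101 ± 31.0 CPM without SNU-6621 (n = 3). Znrf3 (gene 407821, chromosome 11, 5276329 to 5444847) had 1176, 617, 799 and 674 counts, or 22.5, 10.5, 13.2 and 13.8 CPM. It was the only one of the 7 genes above the floor that was highest in SNU-6621, and without that line its mean fell from 15.0 ± 5.18 (n = 4) to 12.5 ± 1.72 CPM (n = 3).

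Among the feedback inhibitors, Axin2 (gene 12006, chromosome 11, 108917828 to 108950783), the scaffold of the destruction complex that is widely used as a readout of the pathway, had 124, 1088, 2674 and 2976 counts. These were 2.37, 18.6, 44.3 and 60.7 CPM, so the lines stood in the same order as for Lgr5, with a 25.6-fold gap that was 3.27-fold without SNU-6621. The mean of Axin2 was 31.5 ± 26.03 CPM (SD, n = 4) and 41.2 ± 21.2 CPM without that line (n = 3). Notum (gene 77583, chromosome 11, 120653788 to 120661193), a secreted enzyme that strips the lipid from Wnt ligands, had 295, 807, 4864 and 286 counts, or 5.64, 13.8, 80.5 and 5.84 CPM. SNU-6624 was 13.8-fold above SNU-6625, while SNU-6621 and SNU-6625 had overlapping counting intervals of 5.02 to 6.32 and 5.18 to 6.55 CPM, and the mean was 26.5 ± 36.3 CPM (SD, n = 4), or 33.4 ± 41.0 CPM without SNU-6621 (n = 3). Exons of genes on the opposite strand, among them Notumos, cover 38.1% of the exonic bases of Notum, and with the strand setting of the counts not given, their reads cannot be told apart from those of Notum. Nkd1 (gene 93960, chromosome 8, 88521342 to 88594887), which binds Dishevelled, had 0 counts in each of the 8 libraries, allowing at most 0.0492 to 0.0612 CPM per library by the floor of 3 counts.

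Of the transcription factor genes, Tcf7 (gene 21414, chromosome 11, 52246527 to 52283383), which pairs with beta-catenin and is itself a target, had 729, 346, 958 and 503 counts. These were 13.9, 5.91, 15.9 and 10.3 CPM, with SNU-6622 lowest and a mean of 11.5 ± 4.39 CPM (SD, n = 4), or 10.7 ± 4.99 CPM without SNU-6621 (n = 3). Ascl2 (gene 17173, chromosome 7, 142966822 to 142969264), a stem cell factor of the intestinal crypt, had 18 counts in SNU-6621 and 0 in the other parental lines. Sp5 (gene 64406, chromosome 2, 70474923 to 70477726), a repressor known as a direct target, had 0, 12, 0 and 8 counts.

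SNU-6621 was thus lowest for 5 of the 7 genes above the floor (Lgr5, Lgr4, Axin2, Notum and Rnf43). Of the 15852 genes compared, 29.6% were lowest in that line. The 10 proliferation genes summed to 214, 266, 629 and 707 CPM in the order of the line numbers, so the lines ranked as they did for Lgr5 and Axin2. The part of cell division in these levels was not tested, and in bulk libraries fewer cells of a type and less RNA per cell cannot be told apart.

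The surrounding pathway in the parental lines had ligands and receptors but almost no R-spondin transcript. Of 19 Wnt ligand genes, 7 had at most 3 counts in every library, while Wnt7b had 213 to 426 CPM and Wnt4 62.7 to 82.6 CPM. Wnt5a, the ligand best known for beta-catenin-independent signalling, had 138 CPM in SNU-6621 and 0.388 to 2.88 CPM in the other parental lines. Rspo2, Rspo3 and Rspo4 had 0 counts in all 8 libraries and Rspo1 had 4 counts in 1 library. Of 16 receptor genes 7 reached 10 CPM or more in each of the 4 parental libraries, among them the co-receptor gene Lrp5 at 150 to 404 CPM, and 10 of 11 genes of beta-catenin transduction did so. Of 14 antagonist genes 8, including Dkk1, Sfrp2 and Wif1, had 0 counts in all libraries. Kremen1, the highest of the others, had 70.35 to 76.7 CPM in the parental lines. Trabd2b had 17.4 CPM in SNU-6621 and 0 counts in the other libraries. The Wnt target and sorting receptor gene Ephb2 had 15.5 CPM in SNU-6621 and 176 to 214 CPM in the other parental lines.

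The next question was what lenvatinib did to these genes in SNU-6624 and SNU-6625. Lgr5 all but disappeared and Axin2 and Tcf7 fell, while Notum and Znrf3 did not pass. By edgeR's quasi-likelihood test over 17038 genes (TMM scaling, line as a block, Benjamini-Hochberg adjusted p below 0.05), 3 of the 7 tested genes fell, 0 rose and 4 did not pass. Of all tested genes 5.78% were called in either direction, with 4.08% called down and 1.7% called up, and 31.8% had an unadjusted p below 0.05. Of the 7 tested members 5 had an unadjusted p below 0.05, Lgr4 and Rnf43 in addition to the 3 called. The median log2 fold change of the 7 was -0.95, against -0.00885 over all tested genes. Ascl2, Nkd1 and Sp5 did not pass the filter on low counts and were not tested.

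With lenvatinib, Lgr5 counts went from 1010 to 40 in SNU-6624 and from 3583 to 58 in SNU-6625, or from 16.7 to 0.707 CPM and from 73.1 to 1.07 CPM. Both treated libraries lay below every parental library, SNU-6621 included, and the transcript was left at 4.23% of the parental level in SNU-6624 and at 1.46% of it in SNU-6625. The fitted log2 fold change, -5.48 (SE 0.51), passed with an edgeR adjusted p of 0.0333, and both lines moved the same way. In the 11 alternatives of test, scaling, filter, block and libraries fitted together, Lgr5 also passed, with adjusted p from 1.21e-28 to 0.0445. Lgr4 counts were 4278 and 5344 before and 2812 and 2836 under the drug, 70.8 and 109 against 49.7 and 52.1 CPM, so the treated libraries were lower in both lines but the difference did not pass (log2 fold change -0.89, SE 0.26, edgeR adjusted p = 0.105).

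Axin2 went from 2674 to 875 counts in SNU-6624 and from 2976 to 1407 in SNU-6625, or 44.3 and 60.7 against 15.5 and 25.9 CPM. In SNU-6624 and SNU-6625 both treated libraries lay below both parental ones, and 34.9% and 42.6% of the parental level remained. Parental SNU-6621 and SNU-6622 had 2.37 and 18.6 CPM, so the treated values lay inside the range of all parental lines. The log2 fold change of Axin2, -1.46 (SE 0.18), passed at an edgeR adjusted p of 0.0388. Tcf7 went from 958 and 503 counts to 191 and 181, or from 15.9 and 10.3 to 3.38 and 3.33 CPM, and fell by 1.99 (log2, SE 0.33, edgeR adjusted p = 0.0473). Its treated libraries were almost equal although the parental ones were not. Without the line as a block, adjusted p was 0.0888 for Axin2 and 0.0592 for Tcf7, so that of the 7 genes Lgr5 alone passed, where 6.18% of all genes did. The Tcf7 call was also lost with all 8 libraries (adjusted p = 0.0517) and with library totals alone (0.0605).

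The ligase and Notum genes did not pass. Rnf43 counts were 4991 and 6715 before and 3487 and 3141 under lenvatinib, or 82.6 and 137 against 61.7 and 57.8 CPM (log2 -0.95, SE 0.32, edgeR adjusted p = 0.13). Znrf3 had 799 and 674 counts against 973 and 837, or 13.2 and 13.8 against 17.2 and 15.4 CPM (0.19, SE 0.20, adjusted p = 0.566). Notum went from 80.5 to 26.7 CPM (4864 to 1508 counts) in SNU-6624, while SNU-6625 had 5.84 and 6.55 CPM (286 and 356 counts), with overlapping counting intervals (-0.79, SE 0.44, adjusted p = 0.288). The Notum log2 ratio in SNU-6625 was 0.17 by library totals and 0.06 by TMM, so no opposite direction is shown there. Ascl2 had 0 and 8 counts and Sp5 0 and 0 in the treated libraries.

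Calls in this comparison depended on single libraries. No member passed when parental SNU-6624, parental SNU-6625, lenvatinib SNU-6624 or lenvatinib SNU-6625 was left out, settings in which no gene at all was called, and the log2 fold change of Lgr5 then ran from -6.13 to -4.69. With resistant SNU-6624 or resistant SNU-6625 left out, 5 of the 7 passed downward, Lgr4 and Rnf43 in addition, where 43.3% and 43.7% of all genes were called. DESeq2 also called these 5, with 21.5% of all genes, as did the fit to the 4 libraries of both groups, with 48.3%. Without a filter on low counts Lgr5 alone passed, with 0.7% of all genes called.

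**Figure D2:**
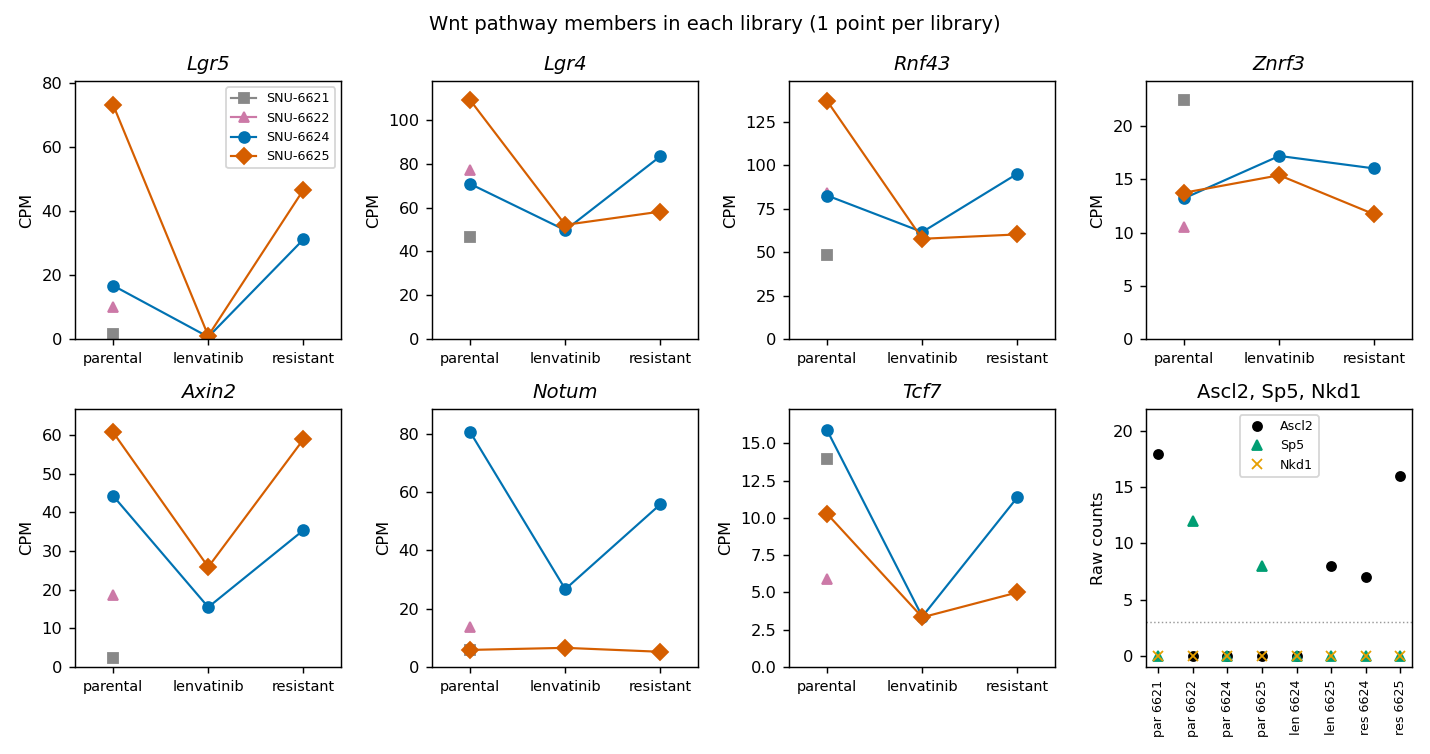
CPM of 7 members by group, with 1 point per library and lines joining libraries of the same organoid line, and raw counts of Ascl2, Sp5 and Nkd1 per library (dotted line: 3 counts). Lgr5 drops to 0.707 and 1.07 CPM with lenvatinib and stands at 31.1 and 46.6 CPM in the resistant libraries.

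Of 65 tested genes in 9 further pathway lists, 4 passed with lenvatinib, a share near the 5.78% of all tested genes called. Of 8 tested Wnt ligand genes 1 fell, Wnt5b (log2 fold change -3.72, SE 0.54, edgeR adjusted p = 0.0435), and the median was -1.46. Wnt5b went from 115 to 4 counts in SNU-6624, next to the floor of 3 counts, and from 464 to 67 counts in SNU-6625. None of 14 tested receptor genes and none of 3 tested antagonist genes passed (3 and 0 at an unadjusted p below 0.05). Of 11 tested genes of beta-catenin transduction 1 rose, Btrc (0.996, SE 0.17), which encodes the ubiquitin ligase subunit that recognises beta-catenin, and the list median was 0.42. Of 5 tested nuclear effector genes 1 fell, Tcf7l2 (-1.35, SE 0.22), the main Tcf factor of gut epithelium, with 42.0 and 52.6 CPM in parental against 21.4 and 17.6 CPM in treated libraries. Of 10 tested further Wnt target genes 1 fell, Ephb2 (-1.26, SE 0.21), at 214 and 212 against 104 and 83.9 CPM. None of 6 tested intestinal stem cell genes and none of 6 tested pericentral hepatocyte genes passed (3 and 1 at an unadjusted p below 0.05), with medians of -0.86 and 0.19.

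Cell division and epithelial genes moved in the same libraries. The 10 proliferation genes summed to 629 and 707 CPM in parental and 36.7 and 45.7 CPM in treated SNU-6624 and SNU-6625, with 2 of 10 called down (Foxm1 and Birc5) and a median of -5.04. Mki67 had 211 and 233 CPM in parental and 1.49 and 1.93 CPM in treated libraries (-7.14, SE 2.06, edgeR adjusted p = 0.104). Intestinal epithelium markers, of which 2 of 4 tested fell (Cdh17 and Vil1), summed to 1736 and 2925 CPM in parental and 113 and 187 CPM in treated libraries. Biliary and progenitor markers, of which 2 of 6 fell (Krt19 and Spp1), were at 6761 and 7049 CPM against 2241 and 2737 CPM. Of these 6 genes 5 had a log2 fold change below 0, with Epcam at -0.235 (SE 0.35, not called). Sox9 was higher in both treated libraries, at 55.3 and 63.0 against 32.4 and 45.8 CPM, and was not called. Stellate cell and fibroblast markers, with 1 of 2 tested called down (Lrat) and Col1a2, Col3a1, Dcn and Pdgfrb at 3 counts or fewer throughout, summed to 3.18 and 2.31 CPM against 0.106 and 0.460 CPM. Of the hepatocyte markers the only one tested, Hnf4a, fell (-3.97, SE 0.21, edgeR adjusted p = 0.0275), from 91.0 and 149 CPM to 5.59 and 10.9 CPM. The part of these lists in the fall of Lgr5, Axin2 and Tcf7 was not tested.

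**Figure D3:**
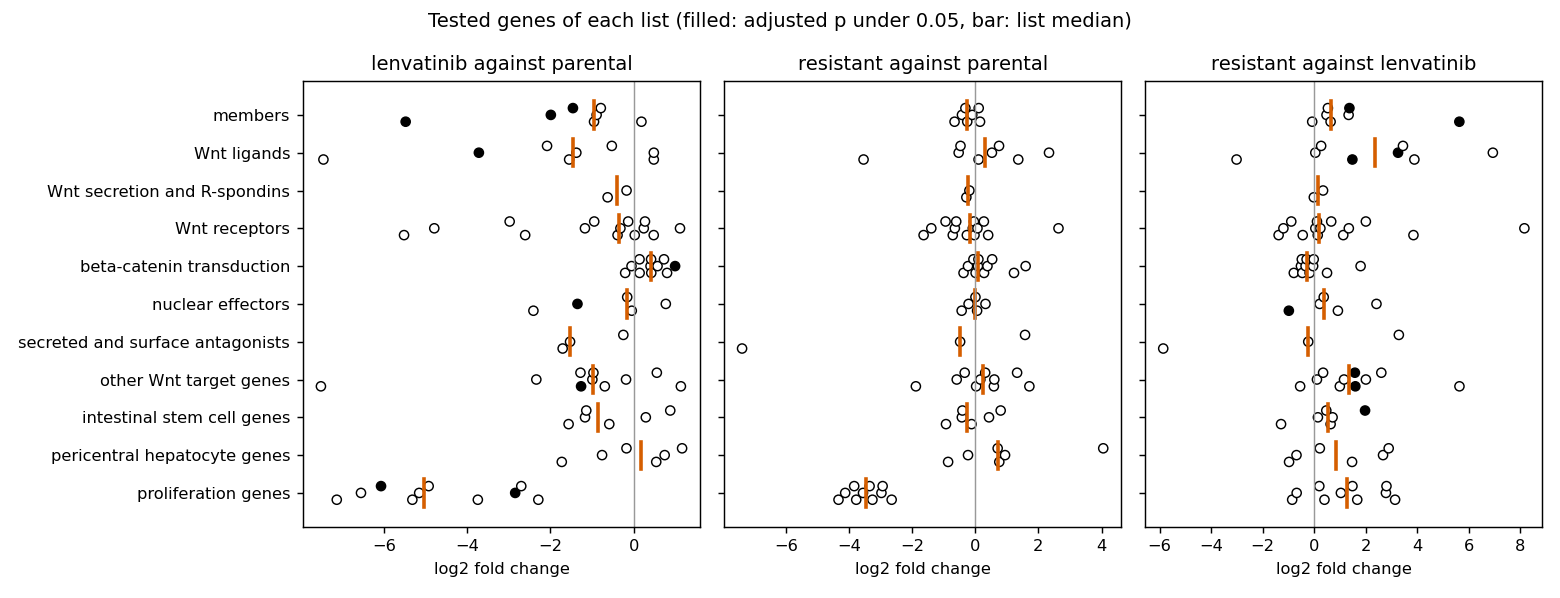
Log2 fold change of every tested gene in each list for the 3 comparisons, filled where the edgeR adjusted p was under 0.05, with a bar at the list median. With lenvatinib the medians of the 7 tested members and of the proliferation list lie at -0.95 and -5.04.

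The third question was whether resistant cultures differ from their parental lines in these genes. None of the 7 tested genes passed, and none had an unadjusted p below 0.05 in edgeR. Over all 17038 tested genes 0.0% were called and 15.9% had an unadjusted p below 0.05, while DESeq2 called 6.48% of genes and 0 of the 7, and limma-voom and limma-trend called 0.0%. A p that misses the threshold does not show that the levels were alike.

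Lgr5 moved in opposite ways in the 2 lines. In SNU-6624 it had 1010 counts before and 1573 after resistance (16.7 and 31.1 CPM), and in SNU-6625 3583 and 2843 (73.1 and 46.6 CPM), for a log2 value of 0.15 (SE 0.42, edgeR adjusted p = 0.869). The resistant pair lay between the parental pair. Lgr4 had 4278 and 4217 counts in SNU-6624 but 5344 and 3552 in SNU-6625, or 70.8 and 83.4 against 109 and 58.2 CPM (-0.26, SE 0.26, adjusted p = 0.626).

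Rnf43 followed Lgr4, with 4991 and 4812 counts in SNU-6624 (82.6 and 95.2 CPM) and 6715 and 3678 in SNU-6625 (137 and 60.3 CPM), so the resistant SNU-6625 culture kept 44.0% of its parental level (-0.42, SE 0.32, edgeR adjusted p = 0.517). Znrf3 had 799 and 810 counts in SNU-6624 and 674 and 715 in SNU-6625, or 13.2 and 16.0, and 13.8 and 11.7 CPM (0.11, SE 0.20, adjusted p = 0.798). Tcf7 was lower in both resistant cultures, at 575 and 305 counts against 958 and 503 in the parental lines, or 11.4 and 4.997 against 15.9 and 10.3 CPM, and did not pass (-0.66, SE 0.31, edgeR adjusted p = 0.37). It passed in edgeR when resistant SNU-6624 was left out (-0.98, adjusted p = 0.0423), a fit that called 32.3% of all genes, and not when resistant SNU-6625 was left out, where 3.26% were called.

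Axin2 had 2674 and 1788 counts in parental and resistant SNU-6624 and 2976 and 3594 in SNU-6625, or 44.3 and 35.4, and 60.7 and 58.9 CPM (-0.10, SE 0.18, edgeR adjusted p = 0.796). Its direction in SNU-6625 depended on the scaling, with a log2 ratio of -0.04 by library totals and 0.17 by TMM. Notum kept its contrast between lines, with 4864 and 2819 counts in SNU-6624 (80.5 and 55.8 CPM) and 286 and 317 in SNU-6625 (5.84 and 5.19 CPM), a log2 fold change of -0.31 (SE 0.43) with an edgeR adjusted p of 0.718. In SNU-6625 its log2 ratio was -0.17 by library totals and 0.04 by TMM. Ascl2 had 7 and 16 counts in the resistant libraries, where the same lines had 0 in parental, and Sp5 had 0 and 0.

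The proliferation genes summed to 157 CPM in resistant SNU-6624 and 9.13 CPM in resistant SNU-6625, with 0 of 10 called and a median log2 fold change of -3.45. Mki67, a marker of cycling cells, had 211 CPM in parental and 39.0 CPM in resistant SNU-6624, while Lgr5 went from 16.7 to 31.1 CPM. In SNU-6625 both were lower in the resistant library, Mki67 at 0.279 against 233 CPM and Lgr5 at 46.6 against 73.1 CPM. Against the lenvatinib libraries the pairing was the reverse. There Mki67 had 1.49 CPM and Lgr5 0.707 CPM in SNU-6624, so both genes were higher in the resistant culture. In SNU-6625 Mki67 had 1.93 CPM and Lgr5 1.07 CPM under lenvatinib, so the genes went opposite ways. No difference between the lines and no part of cell division in Lgr5 levels was tested. Of the 9 further pathway lists, 0 genes were called for resistant against parental, with list medians between -0.48 and 0.73.

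The last comparison set the resistant against the lenvatinib libraries. It shares libraries with the 2 comparisons above, so its values are not independent of them. Of the 7 tested genes 2 rose, Lgr5 and Axin2, 0 fell and 5 did not pass. Of all tested genes 6.23% were called, 4.14% up and 2.08% down, and 30.4% had an unadjusted p below 0.05. Of the 7 tested members 3 had an unadjusted p below 0.05, Tcf7 in addition to the 2 called. Resistant libraries had 1573 and 2843 counts of Lgr5 against 40 and 58 under lenvatinib, which was 5.63 higher on the log2 scale (SE 0.51) with an edgeR adjusted p of 0.0272. By library totals the ratio of CPM was 44.0 for line SNU-6624 and 43.7 for line SNU-6625, and by TMM the log2 ratios were 5.51 and 5.77. Axin2 had 1788 and 3594 against 875 and 1407 counts, or 35.4 and 58.9 against 15.5 and 25.9 CPM, and rose by 1.36 (log2, SE 0.18, edgeR adjusted p = 0.038), with ratios of 2.29 and 2.28 by library totals and TMM log2 ratios of 1.246 and 1.504. Without the line as a block its adjusted p was 0.0929, and 6.57% of all genes were called. With the 4 libraries of both groups alone (1.45% of all genes called) or no filter on low counts (1.3%), Lgr5 alone of the 7 passed, and with DESeq2 (20.9%) Tcf7 passed in addition.

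Tcf7 was higher in both resistant libraries, at 11.4 and 4.997 against 3.38 and 3.33 CPM, and did not pass (1.33, SE 0.32, edgeR adjusted p = 0.0787). Lgr4 (0.64, SE 0.26), Rnf43 (0.53, SE 0.31), Notum (0.48, SE 0.44) and Znrf3 (-0.08, SE 0.20) did not pass either, with edgeR adjusted p of 0.185 or more. Without lenvatinib SNU-6624 or lenvatinib SNU-6625, 0.0% of all genes passed and thus no member, and Lgr5 alone passed without parental SNU-6624 or parental SNU-6625, where 0.503% and 0.657% of all genes did. Without resistant SNU-6625, 4 of the 7 passed, Lgr4 and Tcf7 in addition, and without resistant SNU-6624, 3 passed, Tcf7 in addition, among 33.0% and 34.9% of all genes. Scaling by library totals alone moved the median of all genes by -0.16 and the share of rises among calls from 66.5% to 47.3%, and Lgr5 (5.47) and Axin2 (1.19) stayed above that shift. For lenvatinib against parental the same change took the share of rises from 29.3% to 43.4%.

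Calls in the other pathway lists stand beside the 6.23% of all tested genes called for resistant against lenvatinib. Among these lists, 2 of 8 tested ligand genes rose in this comparison, Wnt5b (log2 fold change 3.25, SE 0.53) and Wnt4 (1.48, SE 0.24), and Wnt4 stood at 98.1 and 60.4 against 27.6 and 35.4 CPM. Wnt5b had 60 and 445 against 4 and 67 counts, so lenvatinib SNU-6624 lay next to the floor. Of 10 tested target genes 2 rose, Ccnd1, the cyclin gene of G1 phase (1.59 on the log2 scale, SE 0.27), and Ephb2 (1.58, SE 0.21). Of 6 tested intestinal stem cell genes 1 rose, the ion transporter gene Slc12a2 (1.97, SE 0.25). Of 5 tested nuclear effector genes 1 fell, Pygo2, a co-activator of beta-catenin (-0.99, SE 0.15). The summed proliferation genes were at 157 and 9.13 against 36.7 and 45.7 CPM (0 of 10 called, 1 at an unadjusted p below 0.05), the intestinal epithelium markers at 2281 and 934 against 113 and 187 CPM (2 of 4 rose) and the biliary and progenitor markers at 11730 and 9107 against 2241 and 2737 CPM (3 of 6 rose). Hnf4a rose (4.05, SE 0.21, edgeR adjusted p = 0.0174), at 109 and 121 against 5.59 and 10.9 CPM. Of the leukocyte markers the only one tested, Csf1r, rose (4.02, SE 0.64, edgeR adjusted p = 0.0449), at 0.712 and 1.196 against 0.0530 and 0.0735 CPM, while Ptprc stayed at 0. Their part in the rise of Lgr5 and Axin2 was not tested. No receptor, secretion, transduction, antagonist or pericentral gene passed in edgeR (2, 0, 3, 1 and 2 at an unadjusted p below 0.05).

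**Figure D4:**
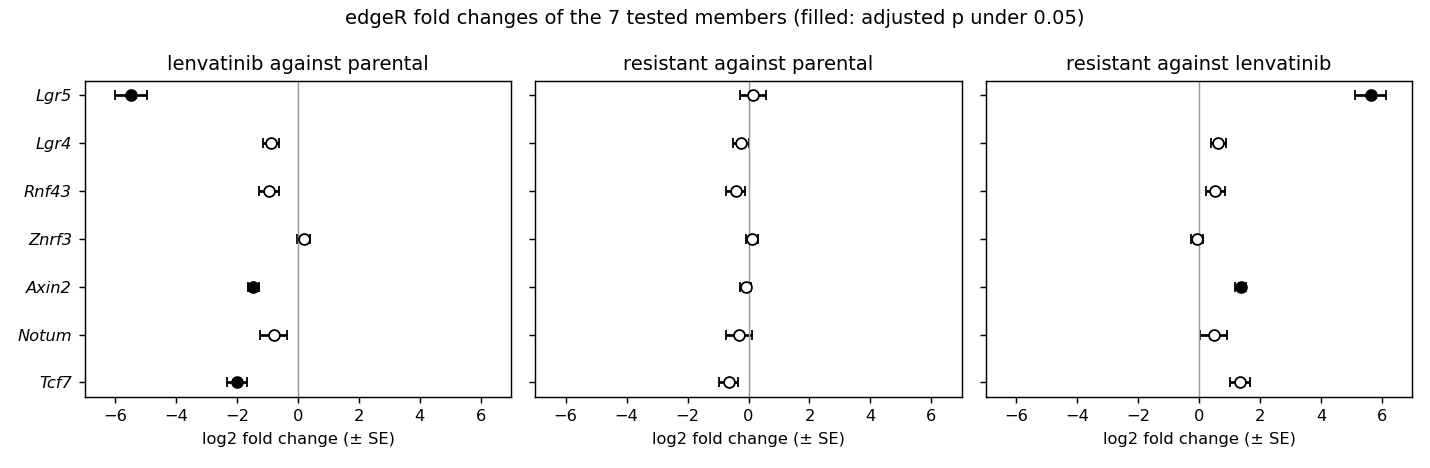
Log2 fold changes with SE for the 7 tested members in the 3 comparisons, filled where the edgeR adjusted p was under 0.05. Lgr5 lies at -5.48 with lenvatinib, at 0.15 in the resistant cultures against parental, and at 5.63 for resistant against lenvatinib.

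The genes with the pattern most like Lgr5 were ranked by Pearson correlation of log2(CPM + 1) over the 8 libraries, among 10306 genes with a mean of at least 5 CPM. The first 5 were Adamts15 (r = 0.986), Pak3 (0.967), Rnf217 (0.962), Nek6 (0.957) and Rnpep (0.957). Adamts15, a secreted protease gene, had 1.15, 11, 11.9 and 33.6 CPM in the parental lines, 0.442 and 1.40 CPM with lenvatinib and 17.4 and 23.6 CPM in the resistant cultures. For Axin2 the first 5 were Agps (0.98), Klf12 (0.977), Vipr1 (0.968), Fkbp5 (0.961) and Suox (0.96). Among the members, Lgr5 correlated with Lgr4 at 0.805, with Rnf43 at 0.731, with Axin2 at 0.725, with Tcf7 at 0.414, with Notum at 0.0546 and with Znrf3 at -0.562. The 8 libraries come from 4 lines and are not independent, so these values only describe the libraries.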

How the data were processed

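The 8 organoid libraries were poly(A)-selected and stranded, per the labels' protocols. The authors deposited whole-number read counts per gene with NCBI identifiers. The submitters' processing notes list build mm10 with HISAT2 2.1.0, StringTie 2.1.3b, Bowtie2 2.3.4.1, Trimmomatic 0.38 and FastQC 0.11.7. The tool that counted reads, with its strand setting, is not given in the sources used here.

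The deposited counts were tested with edgeR 4.0.16 in R 4.3.3 (glmQLFit, glmQLFTest, TMM scaling, filterByExpr, group and line as terms) on the 6 libraries of SNU-6624 and SNU-6625, which left 17038 genes and 2 residual degrees of freedom. The line was a block because the libraries of a line are the same organoid line by label. Deviations of the libraries of a line from their group means correlated at 0.504 (lenvatinib and parental), 0.288 (resistant and parental) and 0.29 (resistant and lenvatinib). SE was taken as the fold change (log2) over the root of its F value. The steps were also run on simulated counts drawn with no line effect, so that run does not bear on the line block. Totals per library were 49.0 to 61.0 M. RefSeq (GRCm38.p6) gave gene positions, and GENCODE M21 gave transcript lengths and exon overlaps.

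Alternatives were no block, all 8 libraries, only the 4 libraries compared, DESeq2 1.42.0, limma 3.58.1 (voom, and trend on log2(CPM + 1) or log2(CPM + 0.1)), RLE or no scaling, other filters (none, or at least 1 CPM in 2 libraries) and each library left out. All members are named. From each pathway list the rule took every called gene, up to 4 per comparison, or else the 2 highest, of which the text gives part. For Lgr5 and Axin2 it took the 5 best correlated genes with a mean of at least 5 CPM, predicted genes left out. Wnt5a, Ephb2, the R-spondin genes and the antagonists in the parental lines, and genes of marker lists, were chosen after their values were seen. Members and lists were chosen with earlier results of these data known.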

Additional observations from a re-analysis of the deposited data

Results flagged for a closer look

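In the 4 parental lines, Notum in SNU-6624 stood far from the other lines at 80.5 CPM, against 5.64 to 13.8 CPM, with a gap of 0.891 of the whole range. Ascl2 was read in SNU-6621 alone, at 18 counts, a gap of 1.0 of the range. The Notum gap is above Dixon's 95% critical value for 4 values, which chance passes for about 1 group in 20 if values are normal. That condition was not checked for these CPM, and more than 1 gene was screened. For Ascl2 the other 3 lines are tied at 0, so the gap is 1.0 for any value above 0 and that rate does not apply.

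By library totals, several members had ratios of opposite sign in SNU-6624 and SNU-6625, and these differences were not tested, since each line had 1 library per group. With log2 ratios of CPM taken as SNU-6625 minus SNU-6624, the lines differed in resistant against parental by -1.55 for Lgr5 (0.90 in SNU-6624 and -0.65 in SNU-6625), -1.14 for Lgr4, -1.39 for Rnf43 and -0.508 for Znrf3. With TMM scaling the Znrf3 ratio in SNU-6625 was -0.02. For Notum they differed by 1.76 in lenvatinib against parental and by -1.4 in resistant against lenvatinib, but with TMM scaling its ratios in SNU-6625 were 0.06 and -0.016.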

How the results depend on the processing

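With 2 lines and 2 residual degrees of freedom, calls other than that of Lgr5 depended on the setting, and that of Lgr5 was lost when single libraries were left out. For lenvatinib against parental, the 3 members called became 1 (Lgr5) with no replicate block or no filter on low counts and 5 with DESeq2 or with the 4 libraries compared alone, and Tcf7 was lost with all 8 libraries and with library totals only (2 called each). For resistant against lenvatinib, the 2 became 1 (Lgr5) with no replicate block, with the 4 libraries or with no filter. Leaving out each library in turn gave 0 to 5, 0 to 4 and, for resistant against parental, 0 to 1 members. These fits assume that a lone library varies like the others.

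Directions held in all fits for the 7 tested members in lenvatinib against parental. In resistant against parental, Lgr5 had -0.089 with no replicate block, and with each library left out the log2 fold change ran from -0.51 to 0.93 for Lgr5, -0.63 to 0.13 for Lgr4, -0.295 to 0.094 for Axin2, -0.81 to 0.34 for Notum, -0.91 to 0.11 for Rnf43 and -0.031 to 0.245 for Znrf3. For Notum in resistant against lenvatinib it ran from -0.16 to 1.275. The cause was not tested. With TMM scaling, parental means moved by less than 1 SD. Leaving out a line cannot move a mean of these lines that far, so it was no check on them.

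Over all genes, 985 calls with lenvatinib became 174 with no filter, 7942 with the 4 libraries, 3669 with DESeq2, 1697 with limma-voom, 1505 and 1801 with limma-trend at a pseudocount of 1 and 0.1, and 0 to 7798 with a library left out. For resistant against lenvatinib, 1061 became 324 with no filter, 234 with the 4 libraries, 3569 with DESeq2, 1682 with limma-trend at a pseudocount of 0.1 and 0 to 6286 with a library left out. For resistant against parental, 0 became 1104 with DESeq2 and 0 to 5819 with a library left out. The pathway list genes called, 4 of 65 tested with lenvatinib and 6 of 65 for resistant against lenvatinib, beside 5.78% and 6.23% of all genes, ranged from 0 to 35 and 0 to 31 over the same settings, a check added after seeing the data. The highest counts came from fits that called 48.3% and 43.7% (35) and 34.9% (31) of all genes. Ascl2, Sp5 and Nkd1 lie at or near the floor, where depth limits any statement.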

Other observations

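Resistant SNU-6625 held more transcript of some further pathway genes than any other library, values that were picked after they were seen and carry no explanation. Ctnnb1, the gene of beta-catenin, had 2034 CPM there against 628 to 1159 CPM in the other libraries, and Sox9, a progenitor factor of the biliary epithelium and a Wnt target, had 172 CPM against 4.30 to 77.4 CPM. Wnt7a had 15.6 CPM against 0.548 to 3.78 CPM. None of these 3 passed in edgeR for resistant against parental, where adjusted p was 0.301, 0.247 and 0.338.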
